A study of Homo sapiens with 8 samples.

Results

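The genes described here encode 10 proteins that hold epithelial cells together: E-cadherin (CDH1), alpha-catenin (CTNNA1), p120-catenin (CTNND1), EpCAM (EPCAM), claudins 3, 4 and 7 (CLDN3, CLDN4, CLDN7), occludin (OCLN), ZO-1 (TJP1) and JAM-A (F11R). They were chosen as adherens and tight junction genes, with earlier results of these data known. All 10 were among the 78932 Ensembl gene identifiers counted in each library. Their reads on the gene's own strand were taken from 8 libraries of HCT116 cells, a human colorectal cancer line, in which NUDT21 carries a dTAG degradation tag. In 4 of them the cells had received DMSO and JTE-607, and in the other 4 dTAGV1 and JTE-607. dTAGV1 recruits tagged proteins for degradation, DMSO served as the solvent control, and JTE-607 inhibits CPSF73, the nuclease that cuts pre-mRNA before the poly(A) tail is added. Both groups thus carried the tag and received JTE-607, and libraries without JTE-607 or from untagged cells were not analysed here. Doses, treatment times and whether the line is 1 clone are not given in the sources used here. The comparison asks which RNA levels differ with dTAGV1 in the presence of JTE-607. How far cleavage was inhibited in these cells was not measured here.

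Adherens junctions join neighbouring cells through E-cadherin, whose tail binds p120-catenin and beta-catenin, and alpha-catenin links this complex to actin. Tight junctions lie closer to the apical surface and seal the space between cells. Claudins form their strands, occludin and JAM-A are further membrane proteins of the same belt, and ZO-1 is the scaffold beneath it. EpCAM is a membrane glycoprotein of epithelia, abundant in colorectal cancer, that binds claudin-7. NUDT21 is the subunit of the cleavage factor Im complex that recognises RNA. This complex binds UGUA motifs upstream of poly(A) sites and influences which site is used.

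Per library, 3447842 to 4291256 reads were counted to genes, and 3348 to 4321 of these fell on the 10 junction genes. For the tagged gene NUDT21, DMSO libraries 1 to 4 held 104, 139, 131 and 129 counts, and dTAGV1 libraries 1 to 4 held 34, 29, 15 and 43. Its log2 fold change was -1.95 ± 0.18 (SE; edgeR, adjusted p = 1.36e-09), and the groups did not overlap. The tag acts on the NUDT21 protein, whose level was not measured here. Among the 10 epithelial marker genes, the keratins KRT8, KRT18 and KRT19 passed the filter on low counts. The other 7, which include the intestinal differentiation genes KRT20 and VIL1, had 1 to 6 counts each over all libraries. KRT18 averaged 408 ± 13.9 CPM with DMSO and 269 ± 34.8 CPM with dTAGV1 (SD, n = 4 each), and KRT19 was 786 ± 87.5 and 499 ± 11.5 CPM. CPM is a count scaled to the size of its library, here after TMM adjustment. Levels and changes given here are therefore relative to the other counted RNA, and absolute amounts per cell were not measured. Both keratins fell (edgeR, adjusted p = 6.02e-07 and 5.14e-08), and the adjusted p of KRT8 was 0.0544. Summed over the 10 epithelial markers, the level ran from 1220 to 1435 CPM with DMSO and from 879 to 932 CPM with dTAGV1. The sum of 8 fibroblast markers ran from 15.9 to 21.6 CPM with DMSO and from 11.2 to 15.9 CPM with dTAGV1, most of it COL1A1, and COL3A1, DCN and LUM were at 0. For 8 endothelial markers these ranges were 9.29 to 14.1 and 9.92 to 14.9 CPM, most of it ESAM, with CLDN5 at 0, and for 8 blood cell markers they were 0.267 to 2.23 and 0 to 1.42 CPM. The part of these markers in the results below was not tested. In RNA from whole cultures, fewer cells of a type and less RNA per cell cannot be told apart.

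The library kit primes on poly(A) tails, so reads lie near the 3′ ends of transcripts. The annotated ends of the junction mRNAs are shown because reads of this kit are drawn from near such ends. Each line gives the last 30 bases of 1 protein-coding transcript per gene (GENCODE 29, GRCh38, that with the longest coding sequence), 5′ to 3′ on the strand of the gene. Capitals mark the poly(A) signal AATAAA or its variant ATTAAA, searched on the transcript strand.
CDH1, chr16:68835512-68835541, plus strand: aaattttATTAAAcaattttgttaaaccat
CTNNA1, chr5:138935005-138935034, plus strand: cccAATAAAgtccactatgaaaccacgaca
CTNND1, chr11:57819149-57819178, plus strand: tctttagATTAAAattatatagctgctcct
EPCAM, chr2:47386871-47386900, plus strand: tatgtgtaacattcaaatgtgtgcATTAAA
CLDN3, chr7:73768997-73769026, minus strand: tatttttcAATAAAagcctttcgttttgca
CLDN4, chr7:73832655-73832684, plus strand: tttctacAATAAAtgggacctgtgcacagg
CLDN7, chr17:7259903-7259932, minus strand: tAATAAAaaAATAAAgatttttattaggta
OCLN, chr5:69558075-69558104, plus strand: acagaacaaatattacagttgggaaaactg
TJP1, chr15:29700155-29700184, minus strand: ctaaatctccaaAATAAAactttttaaaat
F11R, chr1:160995211-160995240, minus strand: aatttgcATTAAAaaatatccaattcttta
All of these windows lie in the last exon, in the 3′ untranslated region. CTNNA1, CLDN3, CLDN4, CLDN7 and TJP1 carried AATAAA, and CDH1, CTNND1, EPCAM and F11R carried ATTAAA. Either was present in 64.5% of 10638 protein-coding genes by the same rule, and the OCLN window held neither. In EPCAM, ATTAAA forms the very end of the transcript shown, while the annotated gene runs on to 47387601. The rule did not ask how far a match lies from the end, and whether any match serves as a signal was not tested. TGTA, the DNA form of UGUA, occurred 2 times in the last 100 bases of EPCAM and CLDN4, 1 time in those of CTNND1 and OCLN, and not in those of the other 6, whereas 54.7% of the 10638 genes had at least 1. These matches describe annotated ends, and which poly(A) site was used in these cells was not measured here.

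With dTAGV1, 5 junction genes rose (CTNNA1, EPCAM, OCLN, TJP1 and F11R) and CLDN4 fell. CDH1, CTNND1 and CLDN3 did not pass the test, and CLDN7 had too few counts to be tested. A gene passed when its adjusted p was under 0.05 (edgeR quasi-likelihood test, Benjamini-Hochberg adjustment over all 12618 genes tested). Of all genes tested, 57.9% passed in either direction, 29.4% higher and 28.5% lower, so that 6 of 9 junction genes is near the background. The median log2 fold change was 0.28 over the 9 tested junction genes and 0.01 over all genes tested. CPM ranges of the groups were fully apart for 4 of the 9, 3 higher and 1 lower, beside 50.9% of all genes tested, 25.8% higher and 25.1% lower. Genes that passed and had an estimated change of more than 2-fold made up 16.6% of all genes tested. Among the junction genes this held for OCLN alone. The test was against no change, so a change beyond 2-fold was not itself tested.

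**Figure D1:**
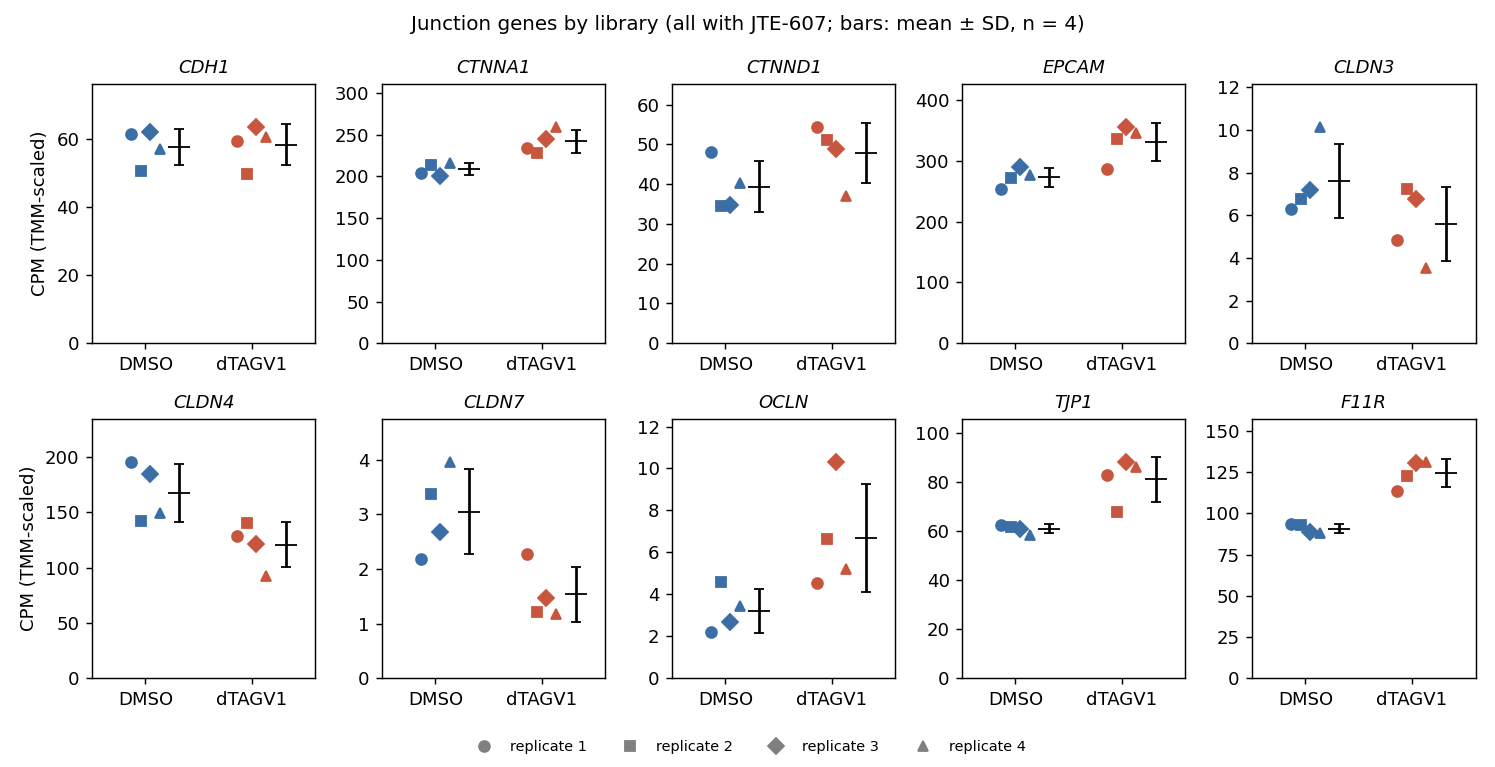
CPM of each junction gene (vertical axes, from 0, scaled per gene) in the 4 DMSO and 4 dTAGV1 libraries; marker shapes give the replicate number and bars the mean ± SD. TJP1, F11R and CTNNA1 lie higher in every dTAGV1 library than in any DMSO library, CLDN4 lies lower, and CDH1 covers the same range in both groups.

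CDH1 encodes E-cadherin, the adhesion receptor of the adherens junction (ENSG00000039068; GRCh38 chromosome 16, 68737225 to 68835548, plus strand, protein-coding). It was 61.5, 50.6, 62.2 and 57.1 CPM in DMSO libraries 1 to 4 and 59.5, 49.8, 63.6 and 60.5 CPM in dTAGV1 libraries 1 to 4. The ranges lay over each other almost fully. The log2 fold change of CDH1 was 0.02 with a 95% confidence interval of -0.19 to 0.23 (edgeR, adjusted p = 0.899). Relative to the other counted RNA, a change of CDH1 beyond 1.17-fold upward, or to below 0.875 of the DMSO level, thus lay outside this interval. CDH1 had 1746 counts over the 8 libraries, and a smaller change in either direction remains possible.

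CTNNA1 encodes alpha-catenin, the link to actin (ENSG00000044115; chromosome 5, 138610967 to 138935034, plus strand, protein-coding). Its level was 204, 213, 201 and 216 CPM in DMSO libraries 1 to 4 and 234, 228, 245 and 259 CPM in dTAGV1 libraries 1 to 4. Every dTAGV1 library was above every DMSO library, by a small margin. CTNNA1 rose 1.16-fold, a log2 fold change of 0.21 ± 0.07 (SE; edgeR, adjusted p = 0.0114). This call was lost without dTAGV1 replicate 4 (log2 fold change 0.16, adjusted p = 0.0618), with scaling by library size alone (0.14, adjusted p = 0.101) and with no filter on low counts (0.19, adjusted p = 0.0577).

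CTNND1 encodes p120-catenin, which keeps E-cadherin at the membrane (ENSG00000198561; chromosome 11, 57753243 to 57819546, plus strand, protein-coding). It was 48.1, 34.5, 34.7 and 40.3 CPM in DMSO libraries 1 to 4 and 54.4, 51.1, 48.9 and 37.1 CPM in dTAGV1 libraries 1 to 4. The other 3 dTAGV1 libraries were above every DMSO library, and dTAGV1 replicate 4, which lay within the DMSO range, made the groups overlap. The log2 fold change of 0.28 had an unadjusted 95% confidence interval of 0.01 to 0.54 and did not pass after adjustment (edgeR, adjusted p = 0.0677). Without DMSO replicate 1 it was 0.38 (adjusted p = 0.0165) and without dTAGV1 replicate 4 it was 0.37 (adjusted p = 0.0114). In GENCODE 29, exons of CTNND1 overlap those of TMX2-CTNND1 and AP001931.1 on the same strand, and reads there may not have been counted, so its level is uncertain.

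EPCAM (ENSG00000119888; chromosome 2, 47345158 to 47387601, plus strand, protein-coding) had 9054 counts in all, the deepest measurement of the 10. It was 253, 272, 290 and 276 CPM in DMSO libraries 1 to 4 and 286, 337, 356 and 346 CPM in dTAGV1 libraries 1 to 4. Only dTAGV1 replicate 1 lay within the DMSO range. EPCAM rose 1.21-fold, a log2 fold change of 0.28 ± 0.08 (SE; edgeR, adjusted p = 0.00282).

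CLDN4 encodes claudin-4, a strand protein that tightens the barrier of many epithelia (ENSG00000189143; chromosome 7, 73799542 to 73832693, plus strand, protein-coding). It was 195, 142, 184 and 149 CPM in DMSO libraries 1 to 4 and 129, 140, 122 and 92.2 CPM in dTAGV1 libraries 1 to 4. DMSO replicate 2 and dTAGV1 replicate 2 nearly met, but the groups did not overlap. CLDN4 fell by 0.48 ± 0.13 on the log2 scale (SE; edgeR, adjusted p = 0.00552), to 0.718 of its DMSO level. It was the only junction gene called lower.

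Claudins 3 and 7 had few reads. CLDN3 lies on the same chromosome as CLDN4 (ENSG00000165215; chromosome 7, 73768997 to 73770270, minus strand, protein-coding) and had 23, 28, 27 and 41 counts in DMSO libraries 1 to 4 and 17, 24, 23 and 15 in dTAGV1 libraries 1 to 4. The counts of the groups overlapped. Its log2 fold change was -0.47 ± 0.26 (SE; edgeR, adjusted p = 0.128). The upper end of its 95% confidence interval was 0.07, so a fall as large as that of CLDN4 and no change both lay within it. CLDN7 (ENSG00000181885; chromosome 17, 7259903 to 7263983, minus strand, protein-coding) had 8, 14, 10 and 16 counts in DMSO libraries 1 to 4 and 8, 4, 5 and 5 in dTAGV1 libraries 1 to 4. That is 3.05 ± 0.779 CPM with DMSO and 1.53 ± 0.507 CPM with dTAGV1 (SD, n = 4 each), with dTAGV1 replicate 1 inside the DMSO range. The difference of -1.51 CPM gave a 2-sided exact permutation p of 0.0571, where 0.0286 is the smallest possible. With no filter on low counts, edgeR gave CLDN7 a log2 fold change of -1.02 (adjusted p = 0.065). Exons of CLDN7 overlap AC003688.1 on the same strand, which can take reads from it.

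OCLN encodes occludin, which regulates the tight junction strand (ENSG00000197822; chromosome 5, 69492292 to 69558104, plus strand, protein-coding). DMSO libraries 1 to 4 held 8, 19, 10 and 14 counts of it, and dTAGV1 libraries 1 to 4 held 16, 22, 35 and 22. Scaled, OCLN averaged 3.22 ± 1.05 CPM with DMSO and 6.67 ± 2.58 CPM with dTAGV1 (SD, n = 4 each), and the highest DMSO library exceeded the lowest dTAGV1 library. OCLN rose 2.02-fold, a log2 fold change of 1.01 ± 0.31 (SE; edgeR, adjusted p = 0.00695), the largest estimate and the largest SE among the tested junction genes. Without dTAGV1 replicate 3, the library with 35 counts, the log2 fold change was 0.72 and the call was lost (adjusted p = 0.0629).

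TJP1 encodes ZO-1, the scaffold that ties claudins and occludin to actin (ENSG00000104067; chromosome 15, 29699367 to 29968865, minus strand, protein-coding). It was 62.6, 61.7, 60.8 and 58.4 CPM in DMSO libraries 1 to 4 and 82.8, 67.7, 88.1 and 85.9 CPM in dTAGV1 libraries 1 to 4. The DMSO libraries were tightly grouped and all dTAGV1 libraries were higher, replicate 2 by the least. TJP1 rose 1.33-fold, a log2 fold change of 0.42 ± 0.09 (SE; edgeR, adjusted p = 0.000559).

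F11R encodes JAM-A, an immunoglobulin-like adhesion protein of the tight junction (ENSG00000158769; chromosome 1, 160995211 to 161021348, minus strand, protein-coding). It was 93.7, 92.9, 88.8 and 88.0 CPM in DMSO libraries 1 to 4 and 113, 123, 131 and 131 CPM in dTAGV1 libraries 1 to 4. The groups stood well apart. F11R rose 1.37-fold, a log2 fold change of 0.46 ± 0.08 (SE; edgeR, adjusted p = 2.78e-05), the smallest adjusted p among the junction genes. Its exons overlap AL591806.3 on the same strand.

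**Figure D2:**
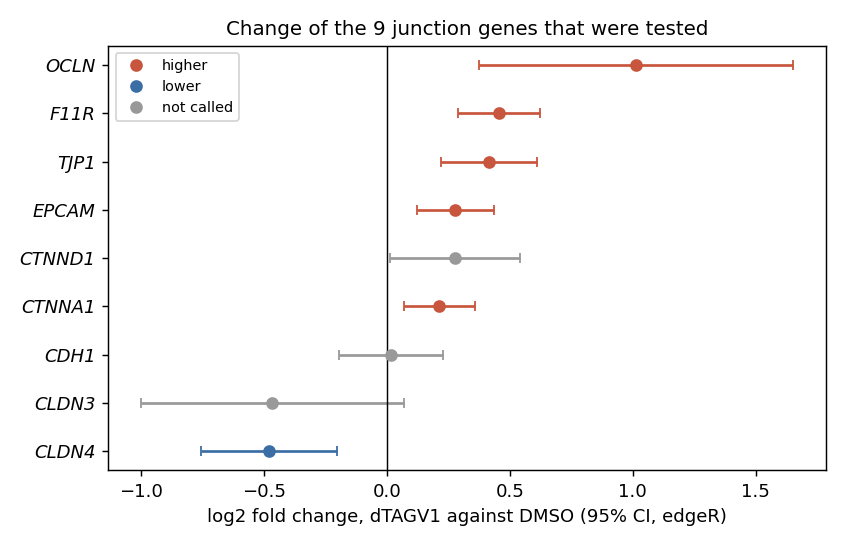
Log2 fold change with dTAGV1 against DMSO (horizontal axis) of the 9 junction genes that passed the filter, with unadjusted 95% confidence intervals from edgeR; colours give the direction of genes with an adjusted p under 0.05. OCLN has the largest estimate and the widest interval, CDH1 lies at 0.02, and CLDN4 lies at -0.48.

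Reads on the opposite strand were rare for these genes. Of the reads on either strand, they made up 1.15% for CLDN4, at most 0.352% for the others, and were 0 for CLDN3, CLDN7, CTNND1, OCLN and TJP1. Without regard to strand, CLDN7 kept 64.3% of its sense counts and CDH1 94.3%. On the opposite strand, exons of CLDN7 overlap those of ELP5 and exons of CDH1 overlap those of AC099314.1. For the other 8 the unstranded counts were 97.8% to 101% of the sense counts.

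The remaining adherens junction genes changed in both directions. Of 22 listed, 17 were tested, of which 8 rose and 5 fell, beside 29.4% higher and 28.5% lower over all genes tested. Their median log2 fold change was 0.21. CTNNB1 encodes beta-catenin, the partner of E-cadherin that also acts in Wnt signalling. It was 153, 157, 153 and 147 CPM in DMSO libraries 1 to 4 and 72.3, 74.3, 62.2 and 77.8 CPM in dTAGV1 libraries 1 to 4, with a wide gap between the groups. CTNNB1 fell by 1.09 ± 0.08 on the log2 scale (SE; edgeR, adjusted p = 5.35e-11), beside 0.02 for CDH1 and 0.21 for CTNNA1. ARVCF, a p120-catenin relative, fell by 0.98, and JUP, encoding plakoglobin, fell by 0.45. NECTIN1, an immunoglobulin-like adhesion receptor, rose by 0.60 and LIMA1, an actin-binding protein, rose by 0.48, both on the log2 scale. CDH2, encoding N-cadherin, had 0 counts in all 8 libraries. The call rule was the same for this and the following lists.

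Among 28 further tight junction genes, 19 were tested, of which 3 rose and 7 fell, beside 29.4% and 28.5% of all genes tested, and their median log2 fold change was -0.19. The 3 listed MARVELD genes share the MARVEL domain with occludin, and all were tested. Being listed does not establish a place in the tight junction, and protein location was not measured here. MARVELD1 was 49.5, 37.6, 47.0 and 43.5 CPM in DMSO libraries 1 to 4 and 16.2, 16.3, 15.3 and 9.93 CPM in dTAGV1 libraries 1 to 4. It fell by 1.63 ± 0.15 on the log2 scale (SE; edgeR, adjusted p = 1.23e-09). MARVELD2, encoding tricellulin, which seals the points where cells meet in threes, rose from 26.6 ± 3.86 to 39.9 ± 2.68 CPM (SD, n = 4 each; log2 fold change 0.59, edgeR adjusted p = 0.000221). MARVELD3 fell by 0.74. CXADR, a receptor of the JAM superfamily, fell by 1.05 while F11R rose by 0.46, and YBX3, a transcription factor that binds ZO-1, rose by 0.92. CLDN1 had 0 to 2 counts per library and CLDN2 had 2 to 15, and neither was tested.

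Desmosomes anchor keratin filaments at cell contacts. Of 13 listed genes 9 were tested, and all 9 passed, 5 higher and 4 lower, where 57.9% of all genes tested passed. The cadherins DSG2, DSC2 and DSC3, the plaque protein gene PKP2 and PERP, a tetraspan membrane protein, rose. DSP, PKP3, PPL and EVPL, which encode cytoplasmic plaque proteins, fell. DSG2 rose from 205 ± 8.41 to 299 ± 22.2 CPM (SD, n = 4 each), and PERP rose by 0.86 on the log2 scale. EVPL fell by 1.53 and PKP3 by 1.03. With scaling by library size alone and with DESeq2, 3 of these genes were called higher and 4 lower. When each library was left out in turn, 7 to 9 were called.

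Polarity complexes place the junctions along the apical to basal axis. Of 18 listed genes 14 were tested, of which 6 rose and 1 fell, beside 29.4% and 28.5% of all genes tested. PALS1, the Crumbs complex scaffold, averaged 62.4 ± 7.79 CPM in the DMSO libraries and 138 ± 7.58 CPM in the dTAGV1 libraries (SD, n = 4 each). PALS1 rose by 1.14 ± 0.09 on the log2 scale (SE; edgeR, adjusted p = 9.97e-11). PARD6B, a PAR complex adaptor, rose by 0.76 on the log2 scale and PARD3 by 0.53. LLGL2, of the basolateral Scribble module, fell by 0.50.

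Of 18 genes listed around EpCAM, its binding partners and membrane proteolysis, 16 were tested, with 6 higher and 3 lower, near the 57.9% called over all genes tested. ADAM10, a membrane protease that sheds adhesion proteins including E-cadherin, was 81.2, 91.2, 85.9 and 93.7 CPM in DMSO libraries 1 to 4 and 281, 277, 291 and 258 CPM in dTAGV1 libraries 1 to 4. The lowest dTAGV1 library was far above the highest DMSO library. ADAM10 rose by 1.65 ± 0.08 on the log2 scale (SE; edgeR, adjusted p = 7.31e-15), while the log2 fold change of ADAM17 was -0.01 with an adjusted p of 0.926. Of the gamma-secretase genes, which encode the protease that cuts such proteins within the membrane, NCSTN rose by 1.05 and APH1A fell by 0.38. CD9, a tetraspanin, fell by 0.38.

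**Figure D3:**
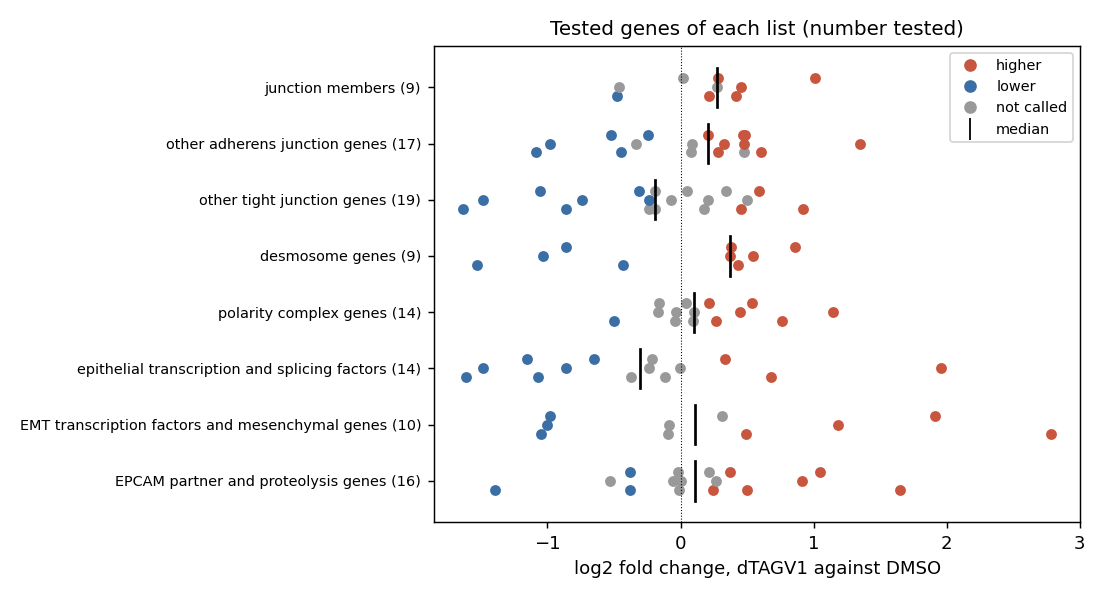
Log2 fold change with dTAGV1 against DMSO (horizontal axis) of each tested gene, with 1 row per gene list and the number tested in parentheses; black ticks are medians and colours give the direction of genes with an adjusted p under 0.05. Junction members span -0.48 to 1.01, and every other list except the polarity genes has members below -1 called lower.

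Transcription factors of the SNAI, ZEB and TWIST families are known for repressing CDH1 and other epithelial genes during epithelial-mesenchymal transition (EMT). ZEB1 was 22.1, 17.8, 11.2 and 17.3 CPM in DMSO libraries 1 to 4 and 73.4, 53.2, 61.3 and 70.0 CPM in dTAGV1 libraries 1 to 4. All dTAGV1 libraries were far above the DMSO libraries. ZEB1 rose by 1.91 ± 0.15 on the log2 scale (SE; edgeR, adjusted p = 3.79e-10). SNAI1 was 23.5, 18.3, 23.2 and 18.5 CPM in DMSO libraries 1 to 4 and 10.5, 5.74, 12.7 and 11.1 CPM in dTAGV1 libraries 1 to 4. It thus moved the other way, without overlap, and fell by 1.05 ± 0.19 on the log2 scale (SE; edgeR, adjusted p = 4.26e-05). SNAI2 had 1, 7, 1 and 3 counts in DMSO libraries 1 to 4 and 24, 20, 15 and 20 in dTAGV1 libraries 1 to 4. It rose (edgeR, adjusted p = 3.67e-06), with a fitted log2 fold change of 2.78 that rests on these few DMSO counts. TWIST1 had 5 to 11 counts per DMSO library and 9 to 30 per dTAGV1 library, and its log2 fold change was 1.18 (edgeR, adjusted p = 0.0083). Without dTAGV1 replicate 1, which had the 30 counts, this was 0.77 and the call was lost (adjusted p = 0.0849). SNAI3 had 4 to 13 counts per library, ZEB2 had 0 to 5 and TWIST2 had 0 in every library, and none of these was tested.

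**Figure D4:**
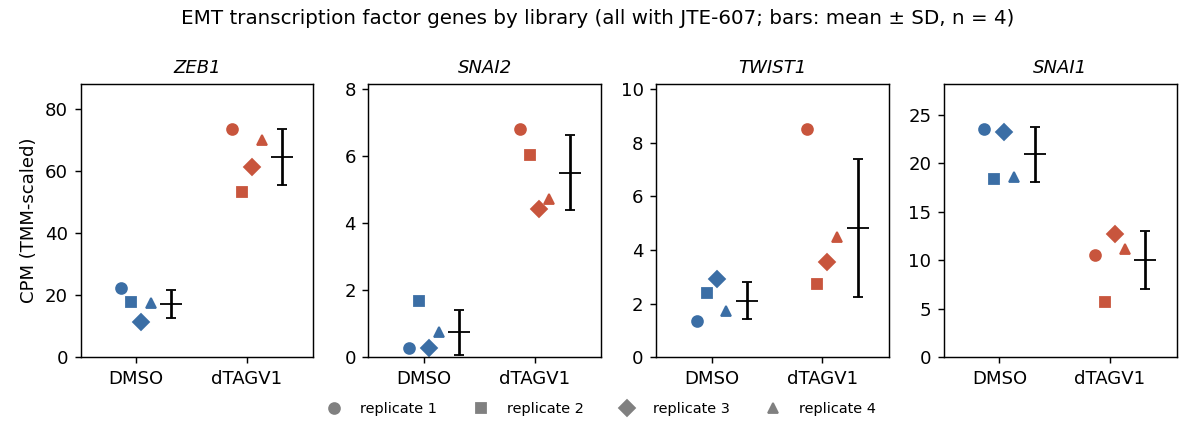
CPM (vertical axes, from 0, scaled per gene) of the 4 tested EMT transcription factor genes in each DMSO and dTAGV1 library; marker shapes give the replicate number and bars the mean ± SD. ZEB1 and SNAI2 are higher and SNAI1 is lower in every dTAGV1 library than in any DMSO library, and TWIST1 overlaps.

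In the whole list of 18 EMT factors and mesenchymal genes, 10 were tested, with 4 higher and 3 lower, beside 29.4% and 28.5% of all genes tested, and a median log2 fold change of 0.11. AXL, a receptor tyrosine kinase, fell by 1.00 on the log2 scale, and S100A4, a calcium-binding protein, fell by 0.98. VIM, encoding vimentin, averaged 11.7 ± 1.43 CPM in the DMSO group and 10.98 ± 2.32 CPM in the dTAGV1 group (SD, n = 4 each), with an adjusted p of 0.681 by edgeR. Of 22 epithelial transcription and splicing factors 14 were tested, with 3 higher and 6 lower, where 57.9% of all genes tested were called. ELF3, an ETS factor of epithelia, rose from 45.7 ± 8.00 to 178 ± 16.1 CPM (log2 fold change 1.96, edgeR adjusted p = 1.28e-13; SD, n = 4 each), and its exons overlap AL691482.3 on the same strand. EHF, another ETS factor, fell by 1.16 and TFCP2L1, of the grainyhead superfamily, by 1.61. The epithelial splicing regulators ESRP1 and ESRP2 fell by 1.07 and 1.48, and exons of ESRP2 overlap AC020978.5 on the same strand. KLF4 rose by 0.33 (edgeR, adjusted p = 0.0399), and this call was lost in 7 of 15 alternative fits, with DESeq2 among them (adjusted p = 0.0857).

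The E-box CAGGTG is a motif that the SNAI and ZEB factors are known to bind. It was counted on both strands (as CAGGTG or CACCTG) in the RefSeq promoter windows of the junction genes. Other E-boxes were not searched, so the count does not speak to the TWIST factors. Each window runs from 250 bases before to 50 after a gene start on GRCh38.p14. CTNNA1, CLDN3, CLDN4, CLDN7, OCLN and TJP1 matched the table, with 14 windows for these 6 genes, since several have more than 1 start. The E-box was found in 5 of the 14 windows, beside 20.6% of all 35116 windows. Of the 10 sites found, 6 are shown as examples, with at least 1 from each window that held a match, 5′ to 3′ on the strand of the gene, with the E-box in capitals.
CLDN7, chr17:7262635-7262664, minus strand: tttcttcctcctCACCTGggcaaggagggg
CLDN7, chr17:7262596-7262625, minus strand: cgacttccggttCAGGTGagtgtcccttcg
OCLN, chr5:69492502-69492531, plus strand: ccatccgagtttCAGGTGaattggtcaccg
OCLN, chr5:69492645-69492674, plus strand: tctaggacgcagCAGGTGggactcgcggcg
CLDN3, chr7:73770221-73770250, minus strand: cccacaaagccacaggCAGGTGcaggcgca
TJP1, chr15:29969120-29969149, minus strand: gcggccggcgcgCAGGTGgcccggcctcgc
The CLDN7 sites start 174 and 135 bases upstream of a gene start, in a window that held 5 such E-boxes, as did or exceeded 33 of the 35116 windows. The OCLN sites shown start 33 and 133 bases upstream of 2 different starts, the TJP1 site 88 bases upstream, and the CLDN3 site 36 bases downstream. No CAGGTG or CACCTG was found in the windows of CLDN4 or CTNNA1. Genes with a match included OCLN and TJP1, which rose, CLDN3, which was not called, and CLDN7, which was not tested. CLDN4, the gene called lower, had no match. All windows printed except that of TJP1 overlap an exon of their gene in GENCODE 29. These are matches of letters, and binding was not measured here.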

How the data were processed

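Libraries were made from Trizol-extracted RNA with the Lexogen QuantSeq FWD kit, per the labels' protocols. The authors deposited whole-number counts of reads per gene, in the layout of STAR output. GRCh38, FastQC, fastp, STAR, HTSeq and DESeq2 are named in the submitters' processing notes, without versions. The annotation and any removal of PCR copies are not given in the sources used here. The count on the gene's strand was used, and it exceeded the opposite strand 8.28 to 8.48 times. Totals of reads given to no gene, 56.7% to 62.8% of each library, stayed out.

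Genes were filtered with filterByExpr (at least 10 counts at default settings), scaled with TMM and tested with edgeR 4.0.16 in R 4.3.3 (robust quasi-likelihood F test, Benjamini-Hochberg adjustment). Intervals are unadjusted. The test was tested on simulated data. Exons and 3′ ends came from GENCODE 29. The counts may rest on another annotation, so which overlapping genes affected them is not known.

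The junction genes and lists were chosen with earlier results of these data known. Beyond the 10 genes, the text names up to 2 largest increases and decreases per list (adjusted p under 0.05, mean of at least 10 CPM, no overlap), the EMT factors and CTNNB1; some genes this rule gives are not reported here, and other names were chosen after their values were seen.

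Labels number replicates 1 to 4 in both groups without tying them to shared cultures. Whether the 4 libraries of a group come from separate cultures is not given either. The p-values thus set the group difference against the spread between these libraries, whatever its source. Alternatives were DESeq2 1.42.0, limma-voom (limma 3.58.1), RLE and library-size scaling, other filters, unstranded counts, a replicate block and leaving out each library.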

Additional observations from a re-analysis of the deposited data

How the results depend on the processing

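Over the alternatives, 135 of 142 log2 fold changes of the 9 tested junction genes kept their side of the threshold, and 4 were weaker and 3 stronger. Sign changes were counted only where the main fit or the alternative called the gene, and there were 0 of these. F11R ran from 0.38 to 0.49, TJP1 from 0.34 to 0.48, EPCAM from 0.20 to 0.33 and CLDN4 from -0.57 to -0.38, all still called. CDH1 ran from -0.06 to 0.07, so its sign varied, and was never called. The number of junction genes called was 5 to 7 when each library was left out in turn. When only genes averaging 100 counts or more were tested, which left 6369, 4120 passed, among them 3 of the 5 epithelial transcription and splicing factors still tested and 4 of the 5 EMT factors or mesenchymal genes still tested. Scaling by library size lowered the genes called higher from 3710 to 3186 and raised those called lower from 3592 to 4089. A replicate block called 7434 genes and 7 junction genes, CTNND1 being added with a log2 fold change of 0.28 (edgeR, adjusted p = 0.0493). Deviations of same-numbered libraries from their group means correlated at 0.131, -0.0176, 0.0232 and 0.0340, and 3 of 8 libraries correlated best with their own number, so the numbers were not taken as pairs. Depth limits CLDN3, CLDN7 and OCLN, with 198, 70 and 146 counts in all.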
